A study of Mus musculus with 8 samples.

Results

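The genes described here are 10 genes that mark melanocytes: Mitf, Sox10, Kit, Ednrb, Tyr, Tyrp1, Dct, Pmel, Mlana and Slc45a2. They were chosen by name, out of 26180 mouse genes with a curated RefSeq transcript, and every one of the 10 was found in the annotation. The samples were all wild-type mouse skin of postnatal day 0.5, as total epidermis taken from back skin that had been split from the dermis with dispase and dissociated with trypsin, so the sheet held keratinocytes and whatever other cells came off with them. The series had 8 samples and 6 antibodies, with no treatment and no second genotype. Peak lists were analysed for 4 antibodies, with 1 list each: MOF, the histone acetyltransferase that acetylates lysine 16 of histone H4; Rfx2, a transcription factor of ciliary genes; H3K4me3, a mark of active promoters; and H3K27Ac, a mark of active promoters and enhancers. No value below has a replicate error and none could be tested across replicates. Per the study, its mice were of a mixed C57Bl/6J and CD-1 background, and whether animals were pooled for a library is not given in the sources used here.

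Melanocytes are pigment cells that arise from the neural crest and make up a small share of the cells of the epidermis and hair follicles. MITF is their lineage regulator and SOX10 acts above it, while the receptors KIT and EDNRB respond to signals from neighbouring cells during migration and survival. Tyrosinase (TYR), TYRP1 and DCT make melanin inside melanosomes, whose fibrils are formed by PMEL with help from MLANA, and SLC45A2 is a melanosomal transporter. In a bulk list from a whole tissue, a peak does not say which cells carried it, and fewer cells with a mark and less of the mark per cell cannot be told apart.

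At promoters, taken as the window from 1 kb upstream to 100 bp downstream of any annotated transcription start site (TSS), the 10 genes had H3K4me3 at 5, H3K27Ac at 2, MOF at 1 and Rfx2 at 0. Among all genes the shares were 54% for H3K4me3, 44.1% for H3K27Ac, 23.7% for MOF and 1.21% for Rfx2. The count with H3K4me3 was therefore near the share of all genes, and those with H3K27Ac and MOF were below theirs. Over only 10 genes, none of these counts is read as a difference from its background share. The genes with H3K4me3 were Mitf, Kit, Ednrb, Pmel and Mlana. Only Mitf had all of H3K4me3, H3K27Ac and MOF, a pattern found at 5306 genes (20.3%). Pmel had H3K4me3 with H3K27Ac, as did 21.6% of genes, and Kit, Ednrb and Mlana had H3K4me3 alone, a pattern held by 9.25% of genes. Sox10, Tyr, Tyrp1, Dct and Slc45a2 had none of the 4, as did 44.1% of genes. Of these peaks, those at Mitf, Kit and Ednrb covered a start, and those at Pmel and Mlana did not.

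**Figure D1:**
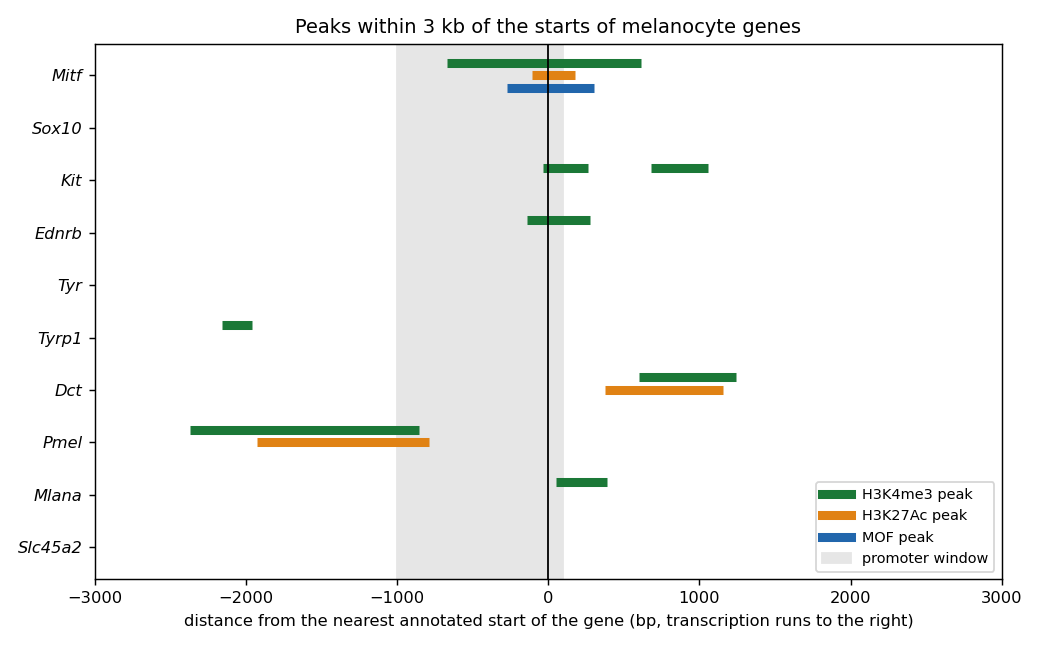
Peaks within 3000 bp of the starts of the 10 melanocyte genes, plotted by distance in bp from the nearest annotated start, with the promoter window shaded and each bar spanning 1 peak. Peaks crossed the start line at Mitf, Kit and Ednrb only, began 48 bp past it at Mlana, lay past the window at Dct, and lay upstream at Pmel and Tyrp1.

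Inside gene bodies, away from the promoter windows, H3K4me3 was found at Kit and Dct, which is 2 of 10 against 20.3% of all genes. H3K27Ac was found in the bodies of Mitf and Dct, again 2 of 10 against 20.5%, and MOF in that of Mitf, 1 of 10 against 17.5%. Rfx2 was in none, against 0.183%. Within 20 kb on either side, 6 genes had H3K4me3 (49.7% of all genes), 4 had H3K27Ac (47.5%), 1 had MOF (38.3%) and 0 had Rfx2 (1.53%). In all, 14 H3K4me3 peaks, 12 H3K27Ac peaks and 4 MOF peaks lay at or near the 10 genes, of which 10, 8 and 3 lay away from the promoters of other genes. The genes spanned 9.58 to 214 kb, and long genes have more room for a peak. Among the 14303 genes within that range of lengths, the promoter shares were 66.5% for H3K4me3, 55.6% for H3K27Ac and 29.6% for MOF, against 5, 2 and 1 of the 10. In gene bodies the shares of that range were 27.4%, 29.0% and 24.5%, against counts of 2, 2 and 1 of 10. Within 20 kb they were 52.2%, 50.4% and 39.6%, against 6, 4 and 1 of 10. With 10 genes, none of these counts is read as a difference from its background share.

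**Figure D2:**
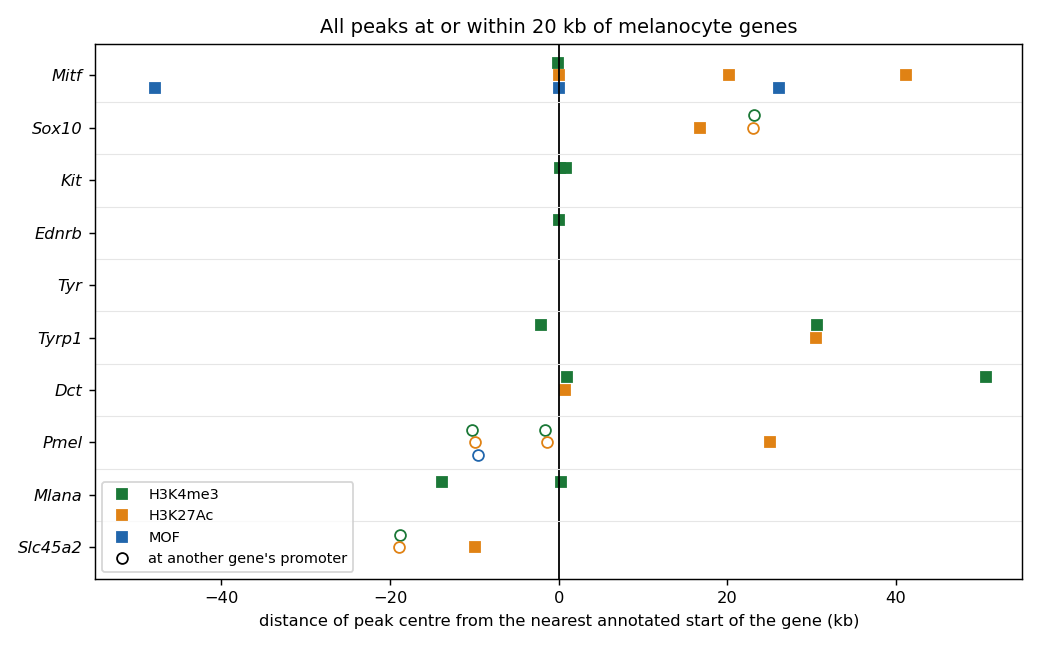
All peaks at or within 20 kb of the 10 genes, plotted by the distance in kb of the peak centre from the nearest annotated start of the gene. Filled squares are peaks away from other genes' promoters and open circles are peaks at another gene's promoter, which include all those upstream of Pmel.

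Mitf had the most peaks, 7 in all, of which those at a promoter lay on its most upstream start. Mitf lies on chromosome 6 of mm10 (97807058 to 98021358, plus strand) and has 3 curated starts, at 97807058, 97929817 and 97991783. The last of these is the start of the short M form, which is used in melanocytes, while the longer forms from upstream starts are made in many cell types. The most upstream start was covered by an H3K4me3 peak of 1287 bp (97806386 to 97807672) with a fold enrichment of 9.58 over the local background and a −log10 q of 47.6. That fold was above those of 70.6% of the genes with H3K4me3 at the promoter, and its width was above those of 48.6%. An H3K27Ac peak of 286 bp (97806947 to 97807232) lay on the same start with a fold enrichment of 6.02, and its width was above those at only 3.97% of the genes with H3K27Ac at the promoter. MOF covered the start with a peak of 580 bp (97806784 to 97807363) and a score of 736, above the scores at 61.1% of the genes with MOF at the promoter. The scale of this score is not stated, so it ranks MOF peaks only.

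The other Mitf starts had no peak from any of the 4 lists. The nearest H3K4me3 peak lay 122 kb upstream of the start at 97929817 and 114 kb downstream of the M start. The nearest MOF peaks were 47.5 kb and 26.0 kb away, and the nearest H3K27Ac peaks 81.5 kb and 143 kb. In the gene body, H3K27Ac had 2 narrow intronic peaks of low height. The first, 241 bp wide with a fold enrichment of 4.09, was centred 20192 bp past the most upstream start, and the second, 219 bp wide with a fold enrichment of 4.63, was centred 41152 bp past it. MOF also had 2 peaks in the body, an intronic one of 826 bp with a score of 825 (97881467 to 97882292) and one of 256 bp with a score of 736 (98017780 to 98018035) whose centre lay in a coding exon. Neither overlapped H3K4me3 or H3K27Ac.

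The 250 bases before the most upstream start and before the M start are shown, with CpG dinucleotides in capitals, because the peaks were at the former and not at the latter. They were read from RefSeq's GRCm38.p6 (mm10), 5′ to 3′ on the plus strand, at chr6:97806808-97807057 and chr6:97991533-97991782.
Mitf, most upstream start: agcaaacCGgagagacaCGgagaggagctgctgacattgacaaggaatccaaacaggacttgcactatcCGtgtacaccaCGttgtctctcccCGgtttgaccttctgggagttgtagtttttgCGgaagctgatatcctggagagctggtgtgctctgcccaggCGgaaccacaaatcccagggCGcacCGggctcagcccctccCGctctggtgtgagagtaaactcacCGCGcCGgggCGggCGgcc
Mitf, M start: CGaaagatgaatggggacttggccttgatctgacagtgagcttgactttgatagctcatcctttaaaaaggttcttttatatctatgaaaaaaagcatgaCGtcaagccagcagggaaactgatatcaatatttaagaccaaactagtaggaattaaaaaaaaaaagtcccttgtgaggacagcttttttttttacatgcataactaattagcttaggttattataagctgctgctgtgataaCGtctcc
The former held 15 CpGs and the latter 3. Over the whole promoter window the ratio of observed to expected CpGs was 0.595 for the most upstream start, above 70.7% of genes' promoters, 0.201 for the start at 97929817 and 0.346 for the M start. Within 250 bases before to 50 after the start, where the ratio allows for the lower GC content of the M start, it was 0.752 for the most upstream start and 0.673 for the M start.

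Sox10 had no peak at its promoter or in its body. SOX10 is the HMG-box factor needed for melanocytes and for glia of the peripheral nerves. The gene spans 9.58 kb on chromosome 15 (79154913 to 79164490, minus strand). Of the peaks within 20 kb, an H3K4me3 peak of 1250 bp with a fold enrichment of 9.7 and an H3K27Ac peak of 891 bp with a fold enrichment of 8.61 lay on the promoters of Polr2f, which encodes an RNA polymerase subunit, and of 1700088E04Rik. A further H3K27Ac peak of 324 bp with a fold enrichment of 3.63 (79147607 to 79147930), 6983 bp past the gene's end, lay at no annotated promoter. The nearest MOF peak was 27.6 kb from the start.

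Both receptor genes had H3K4me3 at the start, and neither had H3K27Ac or MOF at its promoter, in its body or within 20 kb. Kit, the receptor for KIT ligand, is on chromosome 5 (75574987 to 75656722, plus strand). Its promoter peak was 301 bp wide (75574954 to 75575254) with a fold enrichment of 5.51 and a −log10 q of 11.3. It was in the lowest 17.4% by height and the lowest 2.67% by width among genes with H3K4me3 at the promoter. A second H3K4me3 peak of 382 bp with a fold enrichment of 3.35 was centred 869 bp past the start, in the intron. The nearest MOF and H3K27Ac peaks were 117 kb and 165 kb from the start.

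Ednrb encodes the receptor for endothelin 3 and is on chromosome 14 (103814615 to 103844476, minus strand). It has starts at 103843701 and 103844476, and a 416 bp H3K4me3 peak (103843425 to 103843840) lay over the first of these, with a fold enrichment of 4.51 and a −log10 q of 4.01, above the heights at 8.4% of genes. The same peak began 636 bp downstream of the other start, which had none in its window. The nearest MOF peak was 80.8 kb from the marked start and the nearest H3K27Ac peak 330 kb.

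The genes of melanin synthesis had no peak in any promoter window. Tyr, which encodes the rate-limiting enzyme, had no peak of any list in its 68.7 kb span on chromosome 7 (87424771 to 87493512, minus strand) or within 20 kb. The nearest H3K4me3 peak was 246 kb from its start, the nearest H3K27Ac peak 247 kb and the nearest MOF peak 937 kb.

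Tyrp1, on chromosome 4 (80834213 to 80851736, plus strand), had peaks only outside the gene. A 200 bp H3K4me3 peak with a fold enrichment of 5.42 (80832051 to 80832250) ended 1963 bp before the start. A second H3K4me3 peak, of 526 bp (80864529 to 80865054), lay 12793 bp past the end of the gene, overlapped an H3K27Ac peak of 375 bp with a fold enrichment of 5.56, and was at no annotated promoter. Its fold enrichment of 13.9 was the highest of any H3K4me3 peak at or near the 10 genes, above 97.5% of the whole list. Which gene, if any, it belongs to was not tested. The nearest MOF peak was 76.4 kb from the start.

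Dct, on chromosome 14 (118012790 to 118052246, minus strand), was the only one of the 3 with marks inside the gene. An H3K4me3 peak of 648 bp (118051001 to 118051648) and an H3K27Ac peak of 776 bp (118051093 to 118051868) overlapped in an intron just past the promoter window. The H3K4me3 peak ran from 598 to 1245 bp downstream of the start with a fold enrichment of 3.64, and the H3K27Ac peak from 378 to 1153 bp with a fold enrichment of 5.24. Set among the peaks at promoters, these heights were above those at 3.26% and 24.5% of genes. No other of the 10 genes apart from Mitf and Pmel had both marks overlapping within 3000 bp of a start, and at Pmel both lay on a neighbour's promoter. With the window widened to 1 kb on either side of the start, Dct joined the genes with H3K4me3 and H3K27Ac, which were then 6 and 3 of the 10, against 56.0% and 46.0% of all genes with that window. A further H3K4me3 peak of 930 bp with a fold enrichment of 5.93 lay 10717 bp past the gene's end, and the nearest MOF peak was 36.6 kb from the start.

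Pmel, Mlana and Slc45a2 differed in whether the peaks near them were their own. Pmel, which encodes the protein of the melanosome fibrils, is on chromosome 10 (128706258 to 128720238, plus strand), with Cdk2, a cell cycle kinase gene, running the other way from a start 1207 bp away. The H3K4me3 peak counted at Pmel (128703884 to 128705401, 1518 bp, fold enrichment 7.24) and the H3K27Ac peak (128704332 to 128705465, 1134 bp, fold enrichment 7.84) lay over the Cdk2 start and ended 857 and 793 bp before that of Pmel. The MOF peak within 20 kb, of 1962 bp with a score of 1110, lay with H3K4me3 (fold enrichment 8.76) and H3K27Ac (8.37) on the promoter of Rab5b, a GTPase gene of endosomes. Counting only peaks at no other gene's promoter, Pmel kept 1 H3K27Ac peak, of 428 bp with a fold enrichment of 5.14, at 10864 bp past its end. The promoter counts of the 10 genes then were 4 for H3K4me3, 1 for H3K27Ac and 1 for MOF, against 40.3%, 32.2% and 15.9% of all genes under the same rule.

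Mlana, which encodes a melanosomal membrane protein, is on chromosome 19 (29697941 to 29708306, plus strand) and had a 339 bp H3K4me3 peak (29697989 to 29698327) with a fold enrichment of 4.96 and a −log10 q of 4.94. It ran from 48 to 386 bp downstream of the start, with its centre in an intron. A second H3K4me3 peak, of 366 bp with a fold enrichment of 4.06, lay 13714 bp upstream. Slc45a2, on chromosome 15 (11000721 to 11029233, plus strand), had no peak at its promoter or in its body. The H3K4me3 and H3K27Ac peaks upstream of it, with fold enrichments of 12 and 12.1, were at the promoter of Amacr, an enzyme gene of lipid metabolism. A separate 292 bp H3K27Ac peak with a fold enrichment of 5.14 lay 9818 bp upstream, at no annotated promoter.

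The H3K4me3 peaks at Kit, Ednrb and Mlana were alike in size, 301 to 416 bp wide with fold enrichments of 4.51 to 5.51, and were unlike that at Mitf. Over the 5 genes with H3K4me3 the median width was 416 bp and the median fold enrichment 5.51, against 1310 bp and 8.04 over all genes with such a peak. The median −log10 q was 11.3 against 47.3. Neither low nor narrow peaks were particular to these genes. The 18 other pigment cell genes, with 8 such peaks, had a median fold enrichment of 4.23 and a median width of 578 bp, and the 10 Merkel cell markers, with 5, had 6.77 and 597 bp. The 11 keratinocyte markers with H3K4me3 had a median fold enrichment of 4.56, but their peaks had a median width of 2420 bp and a median −log10 q of 38.1. In the plot of width against height, the peaks of Ednrb and Mlana lie within the range of heights of the keratinocyte genes, that of Kit (5.51) just above their highest (5.22), and all 3 are narrower than the narrowest keratinocyte peak, 782 bp at Col17a1.

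**Figure D3:**
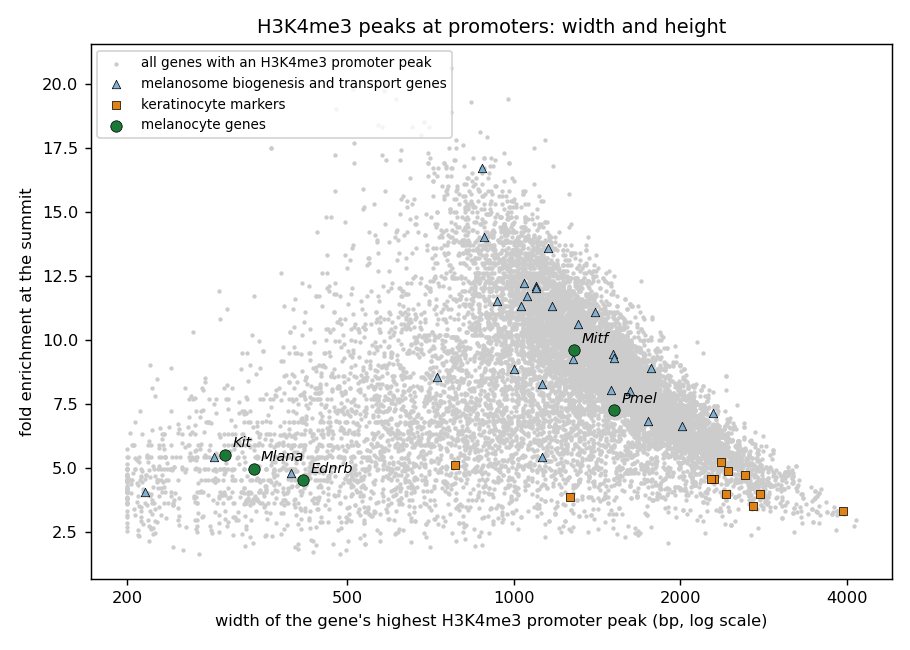
Fold enrichment at the summit against peak width in bp (log scale) for the highest H3K4me3 peak at each promoter, with all 14132 genes in grey. Kit, Mlana and Ednrb are at 301, 339 and 416 bp, Mitf and the Cdk2 peak counted at Pmel are within the main cloud at 1287 and 1518 bp, and the keratinocyte markers reach 3941 bp.

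The wider set of genes that serve pigment cells was described by lists. Their counts stand beside all-gene shares of 54% for H3K4me3, 44.1% for H3K27Ac, 23.7% for MOF and 1.21% for Rfx2. Of 18 other pigment cell genes, 8 had H3K4me3 at the promoter, 5 had H3K27Ac, 2 had MOF and 0 had Rfx2, close to the shares of the 10 genes. Met, the receptor for hepatocyte growth factor, and Cited1, a transcriptional cofactor, had the highest H3K4me3, with fold enrichments of 7.58 and 7.0. H3K27Ac was at Tfap2a, Snai2, Erbb3, Bcl2 and Met. The MOF peaks were at Tfap2b, a transcription factor gene, with a score of 348, and at Erbb3, a neuregulin receptor gene, with a score of 571. Among the 10 genes of this list without H3K4me3, Oca2, Slc24a5, Trpm1, Mc1r and Gpnmb, named after their values were seen, had none of the 4 at the promoter, although Trpm1 had 4 H3K4me3, 10 H3K27Ac and 3 MOF peaks in its body. Gpr143, a receptor of melanosomes, had an H3K4me3 peak of 298 bp with a fold enrichment of 3.61.

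All 28 genes listed for melanosome biogenesis and transport had H3K4me3 at the promoter, 25 had H3K27Ac, 11 had MOF and 2 had Rfx2. Among all genes the shares were 54%, 44.1%, 23.7% and 1.21%. With the peak's centre required inside the window, the counts of the list were 12, 11, 5 and 1. The share of all genes under that rule is not given here. The list was broad, and not every gene in it builds or moves melanosomes. Products of the list such as the subunits of the BLOC and AP-3 complexes and RAB27A also serve lysosomes and related organelles in other cells. Snapin and Hps1 had the highest H3K4me3, with fold enrichments of 16.7 and 14.0, and the list's medians were 9.26 for fold enrichment and 1130 bp for width. The genes without H3K27Ac were Hps6, Mlph and Slc7a11. Rfx2 was at Ap1m1, with a fold enrichment of 22.6, and at Lyst, with 4.16.

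Among 13 ligands and modulators of pigment cells, 7 had H3K4me3, 5 had H3K27Ac, 2 had MOF and 0 had Rfx2. Kitl, the ligand of KIT, had all of H3K4me3 (fold enrichment 5.24, 2357 bp), H3K27Ac (4.75) and MOF (score 1460, at the 96th percentile of promoter scores), whereas its receptor gene Kit had the narrow H3K4me3 peak alone. Fgf2 and Nrg1, growth factor genes, had the highest H3K4me3 of this list, with fold enrichments of 10.3 and 7.14, and the second MOF peak was at Fgf2, with a score of 610. The other genes with H3K27Ac were Ece1, Bmp4, Wnt3a and Agrp. Edn3, the ligand of EDNRB, had none of the 4 at the promoter, nor did Asip, Pomc, Hgf and Wnt1.

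Markers of the cell types that such a sheet could hold were counted in the same way, as a description and not as a test of the label. Of 15 keratinocyte markers, 11 had H3K4me3 at the promoter, 8 had H3K27Ac, 1 (Krt14) had MOF and 0 had Rfx2. Among all genes the shares were 54%, 44.1%, 23.7% and 1.21%. Krt1, Krt10, Lor and Itga6 had no H3K4me3 in the promoter window, but had 1, 1, 1 and 5 H3K4me3 peaks in the gene body. The highest were Dsg3 and Col17a1, genes of keratinocyte adhesion, with fold enrichments of 5.22 and 5.12. With the peak's centre required inside the window, 1 of the 15, Krt14, was left. The same rule lowered H3K4me3 from 28 to 12 of the melanosome genes and from 5 to 2 of the 10 genes. The share of all genes under that rule is not given here. The median width of the keratinocyte peaks, 2420 bp, exceeded that of the window, so the fall is not read as a trait of these genes. Genes of other organs had 0 of 15 for each list, and immune and Langerhans cell markers 0 of 10 for each.

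The markers of other minor cell types had H3K4me3 at counts near or below the 54% of all genes. Schwann cell markers had 6 of 10, with Mbp at a fold enrichment of 9.66 among them, fibroblast markers 5 of 10, with Fbn1 at 10.1 and Col1a2 at 9.86, and Merkel cell markers 5 of 10, with Atoh1 at 8.1, Piezo2 above it, and Syp, Rab3c and Insm1 below. The other fibroblast markers with H3K4me3 were Pdgfra, Dcn and Thy1. Endothelial markers had 2 of 10, Egfl7 at 13.0 and Kdr at 9.27, and skeletal muscle markers 1 of 10, Mylpf at 5.63. H3K27Ac was at 3 Schwann cell markers, 2 fibroblast markers (Dcn and Thy1), 1 muscle marker (Mylpf) and 0 Merkel cell or endothelial markers. MOF was at 3 Schwann cell markers, 2 fibroblast markers (Col1a2 and Pdgfra), 1 Merkel cell marker (Insm1), 1 muscle marker (Tnnt3) and 0 endothelial markers, and Rfx2 at none of these lists. Sox10 and Erbb3 serve Schwann cells as well as melanocytes, and what part such cells had in the peaks at the 10 genes was not tested.

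**Figure D4:**
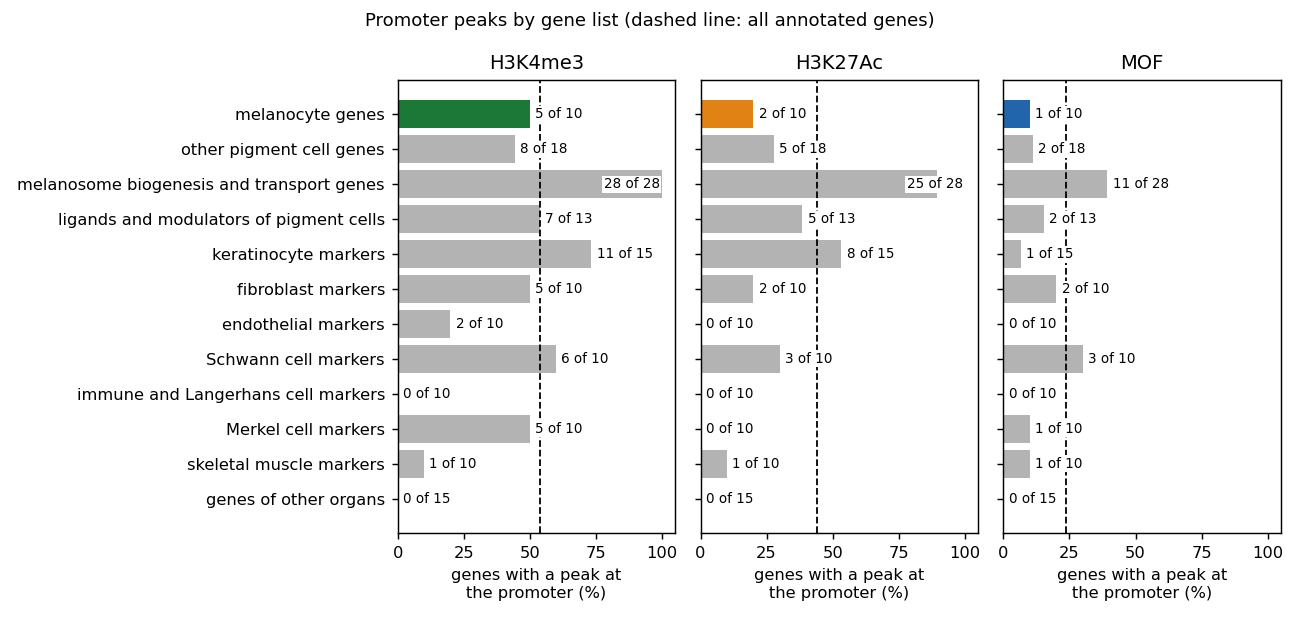
Share of the genes of each list (%) with an H3K4me3, H3K27Ac or MOF peak at the promoter, with the counts printed and the share of all 26180 genes as a dashed line. The 10 melanocyte genes are at 5, 2 and 1, below the melanosome biogenesis and transport genes at 28, 25 and 11 of 28.

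CpG content, which the choice of genes did not use, differed among the 10. Kit and Ednrb were the only ones with a start whose window reached a CpG ratio of 0.6, with Kit at 0.606 and 0.615 for its starts and Ednrb at 0.643 for the marked start and 0.375 for the other. Both had H3K4me3, as did 94.3% of the 7966 genes in that class. Neither had H3K27Ac or MOF, which were at 81.9% and 47.6% of the class. Of the 8 genes under 0.6, 3 had H3K4me3, 2 had H3K27Ac and 1 had MOF, and the shares of the 18214 genes of that class were 36.4%, 27.6% and 13.2%. The lowest ratios were 0.0834 at Tyr, 0.108 at Mlana and 0.183 at Tyrp1, and Mlana was the only one of these with H3K4me3. The line of 0.6 ran close to the ratios of Mitf and Kit. On the shorter window of 250 bases before to 50 after the start, Mitf (0.752) and Kit (0.652) were above it and Ednrb (0.582) was below, and the M start of Mitf, which had no peak, was also above it at 0.673.

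**Figure D5:**
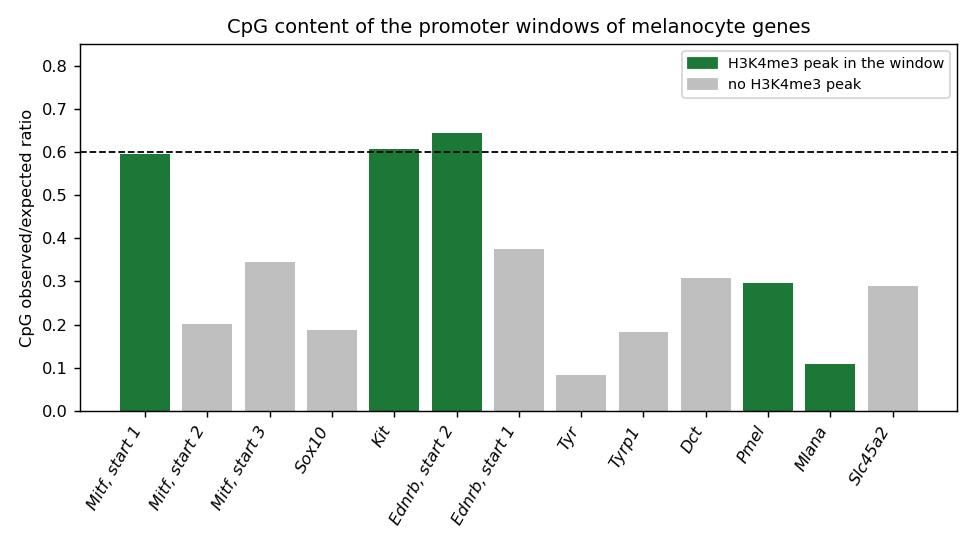
Ratio of observed to expected CpGs in the promoter window of each start of the 10 genes, numbered in the direction of transcription, with the nearly identical Kit starts drawn once. Windows with an H3K4me3 peak are green, and the dashed line marks 0.6, which Kit (0.606) and the marked start of Ednrb (0.643) exceed.

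The 250 bases before the Kit start (chr5:75574737-75574986, plus strand) and before the Mlana start (chr19:29697691-29697940, plus strand) are shown because these genes, both with H3K4me3 alone, differed in CpG content, again with CpGs in capitals.
Kit: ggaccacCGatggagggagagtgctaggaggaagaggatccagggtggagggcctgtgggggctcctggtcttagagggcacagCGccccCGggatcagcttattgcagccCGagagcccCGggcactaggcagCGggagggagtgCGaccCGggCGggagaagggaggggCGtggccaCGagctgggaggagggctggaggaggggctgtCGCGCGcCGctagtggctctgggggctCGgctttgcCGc
Mlana: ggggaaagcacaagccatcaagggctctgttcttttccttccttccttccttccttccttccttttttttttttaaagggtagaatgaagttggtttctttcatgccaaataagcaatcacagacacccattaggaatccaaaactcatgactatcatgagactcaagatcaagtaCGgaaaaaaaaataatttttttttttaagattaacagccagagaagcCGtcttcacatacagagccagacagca
There were 17 CpGs before the Kit start and 2 before that of Mlana, although their H3K4me3 peaks were 301 and 339 bp wide with fold enrichments of 5.51 and 4.96.

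The promoters were also searched, on both strands, for letters that MITF and SOX10 are known to bind: CATGTG, the core of the M-box and an E-box, CACGTG, another E-box, and ACAAAG, a core of SOX sites. Within 250 bases before to 50 after the start, CATGTG was at Tyr, Tyrp1 and Dct and at no other of the 10, which is 3 of 14 starts, against 12.2% of 31645 promoters. The longer TCATGTG, searched after these hits were seen, was at the same 3, against 3.15%. The letters were chosen as sites of regulators of this lineage, and TCATGTG from the hits themselves. Matches at pigment genes were therefore to be looked for, and the shares are given as a scale, not as a test of enrichment. ACAAAG was at Tyrp1 and Dct, against 17.5%, and CACGTG at none, against 7.68%. Over the whole promoter window, of the 14 starts of the 10 genes, CATGTG was at 7 (44.6% of promoters), ACAAAG at 8 (57.7%) and CACGTG at 3 (18.1%), while TCATGTG was at 5 (13.4%).

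The 250 bases before these 3 starts are shown because the genes that hold the letters are the enzyme genes without a promoter peak. They are on the minus strand for Tyr (chr7:87493513-87493762) and Dct (chr14:118052247-118052496) and on the plus strand for Tyrp1 (chr4:80833963-80834212), with matches in capitals. CTTTGT and CACATG are the other strand of ACAAAG and CATGTG.
Tyr: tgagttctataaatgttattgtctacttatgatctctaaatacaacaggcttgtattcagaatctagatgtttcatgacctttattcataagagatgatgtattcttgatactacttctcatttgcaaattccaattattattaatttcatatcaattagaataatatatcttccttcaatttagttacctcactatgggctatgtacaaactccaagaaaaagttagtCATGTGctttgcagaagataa
Tyrp1: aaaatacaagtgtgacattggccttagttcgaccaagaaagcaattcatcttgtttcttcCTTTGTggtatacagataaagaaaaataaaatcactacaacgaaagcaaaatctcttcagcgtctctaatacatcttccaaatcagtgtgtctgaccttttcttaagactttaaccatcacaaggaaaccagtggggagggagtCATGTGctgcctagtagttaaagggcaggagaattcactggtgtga
Dct: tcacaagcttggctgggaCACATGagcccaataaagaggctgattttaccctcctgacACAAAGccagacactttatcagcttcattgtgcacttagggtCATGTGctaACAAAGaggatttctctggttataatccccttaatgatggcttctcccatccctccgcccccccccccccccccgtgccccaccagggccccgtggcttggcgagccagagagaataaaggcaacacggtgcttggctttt
The CATGTG match nearest the start was at −21 in Tyr, −46 in Tyrp1 and −150 in Dct, counted back from the annotated start. None of the 3 motifs was found in the H3K4me3 and H3K27Ac peaks inside Dct, whose CpG ratios were 0.412 and 0.419. A match of letters is a description and says nothing about whether a factor was bound.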

How the data were processed

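Epidermal cells of wild-type newborn mice were profiled with 6 antibodies in 8 samples, and 4 deposited peak lists were used. The study's methods give ChIPseq for MOF and Cut&Run for the others, whereas the protocol in the labels describes a procedure based on Cut&Run. The authors aligned reads to mm10 with Bowtie2 (very sensitive, local) and called peaks library by library with MACS2, and the control library is not given in the sources used here. The deposited H3K4me3, H3K27Ac and Rfx2 lists hold for each peak the fold enrichment at the summit (a ratio), the significance as −log10 q-value and −log10 p-value, and a score, all from the authors' peak caller. The deposited MOF list holds a score of unstated scale only, has more peaks than the study counts for MOF, and may be another or unfiltered call, on which every MOF count here rests. The labels attach the H3K4me3 list to the repeat library, but its name does not carry the mark of a repeat. The lists held 27039 (H3K4me3), 30736 (H3K27Ac), 17546 (MOF) and 337 (Rfx2) peaks. They give no read counts. The study states a depth for each library, and those depths differ between antibodies and were not used here, so counts of peaks and their heights were not compared between lists.

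Starts, spans and sequence came from curated RefSeq transcripts and GRCm38.p6, read with pysam 0.24.0, and all 10 genes matched by symbol. A peak was placed at a promoter when at least 1 bp of it fell in the window reaching 1 kb before and 100 bp past a start, otherwise in the gene body, otherwise within 20 kb. Background shares are over 26180 genes. The overlap step was tested on simulated data and differed from bedtools 2.31.1 at 0 of 5000 windows. The 10 genes, the 11 other lists (written from general knowledge) and the rules were chosen with earlier results of these data known. Named are all 10 genes, the 2 genes of each other list with the highest H3K4me3, genes in classes of 5 or fewer, and neighbours whose promoters held a counted peak. Rab27a, Gpr143, Oca2, Slc24a5, Trpm1, Mc1r, Gpnmb, Kitl and Edn3 are named outside this rule, after their values were seen. A gene that this rule names is counted but not reported here by name. No test across replicates was possible.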

Additional observations from a re-analysis of the deposited data

How the results depend on the processing

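With each antibody read from 1 list, the only check is to change the rules. No paired analysis was possible because a single list stood for each antibody. Of 92 alternatives over 12 counts of the 10 genes, 74 left the count within 1.5 times and 18 moved it, 16 of them down. A kept count can hide other genes: within 500 bp on either side of the start, H3K27Ac stayed at 2 genes but at Mitf and Dct in place of Mitf and Pmel. The promoter count of H3K4me3 fell from 5 to 2 with the peak centre inside the window or an overlap of 50% of the shorter (Mitf and Ednrb) and, with the stronger 50% of peaks by −log10 q (score for MOF), to 2 (Mitf and Pmel). That of H3K27Ac fell from 2 to 1 under the same 3 settings and, in an alternative chosen after seeing the data, with only peaks at no other gene's promoter. With predicted transcripts, the MOF promoter count rose to 2, by Pmel, the MOF count within 20 kb fell to 0 and the H3K4me3 count in gene bodies fell from 2 to 1. With the stronger 50% of peaks, gene bodies were left with 0 for H3K4me3 and 1 for H3K27Ac. Without peaks at other promoters, 3 genes had H3K4me3 and 0 MOF within 20 kb. A flank of 5 kb left 1 for H3K4me3, 0 for H3K27Ac and 0 for MOF, and one of 50 kb gave 4 for MOF. The median percentile of the H3K4me3 promoter heights moved from 17.4 to 7.91 when −log10 q was ranked in place of fold enrichment. CATGTG was at 3 genes in the short window and 6 in the long. Rfx2 gave 0 in all. Of 352 alternatives over 44 counts of the other lists, 297 left the count within 1.5 times and 55 moved it, 43 of them down. With the peak centre inside the window, H3K4me3 fell from 28 to 12 of the melanosome genes, from 11 to 1 of the keratinocyte markers and from 5 to 1 of the fibroblast markers.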
